A study of Mus musculus with 6 samples.

Results

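The collagen genes were read here as every gene whose symbol has the form Col, a number, the letter a and a number. This rule found 44 of the 46517 genes listed in the files, and used no measured value. RNA had been sequenced from stem cells of the hair germ. These were isolated by flow sorting of mouse back skin at an age of 60 days, on day 3 after the hair was depilated. The 6 libraries formed 3 groups of 2. The LEF1_TCF7dKO mice, called the double knockout here, were Lef1fl/fl and Tcf7-/-. The LEF1cKO mice were Lef1fl/fl with Tcf7 intact, and the WT mice carried neither change. All 3 groups, WT included, carried the Cre driver Sox9-CreER and the reporter R26-lox-stop-lox-YFP. A CreER enzyme, once induced, acts in the cells that express its driver, so Lef1 was targeted in Sox9-expressing cells and their progeny, whereas the Tcf7-/- alleles were present in every cell of the double knockout. The cells were sorted on YFP, integrin b1, CD34, Sca-1 and Pcadherin. The labels give the sex of each sample as mixed, and do not say how many mice stand behind a library. The p-values below therefore measure the spread between these libraries, which may be technical.

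Collagens are proteins of the extracellular matrix in which 3 chains wind into a triple helix, and glycine must stand at 1 position in every 3 residues of the wound part. Most fibrillar collagens carry 1 long unbroken helix, and those of the dermis pack into its fibrils. Type IV collagens have an interrupted helix and form the sheet-like network of basement membranes, which separates the hair follicle epithelium from the dermis. Transmembrane collagens stay in the cell membrane, and one of them, collagen XVII, is a part of the hemidesmosomes that fasten basal epithelial cells, hair follicle stem cells among them, to the basement membrane. LEF1 and TCF7 are DNA-binding partners of beta-catenin in Wnt signalling.

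The 44 genes comprised 11 fibrillar collagens, 6 type IV chains of the basement membrane network, 2 multiplexins of the basement membrane zone, the anchoring fibril gene Col7a1, 4 transmembrane collagens, 9 fibril-associated collagens with interrupted helices, 6 beaded-filament type VI chains, 3 short-chain collagens and 2 others, Col26a1 and Col28a1. The following coding stretches show the glycine repeat that the 3 contrasted classes share. Each holds the first 10 triplets of the longest unbroken repeat of that gene, read from its GENCODE M21 transcript and shown with the glycine codons, GGN, in capitals. Col1a1 is the main fibrillar chain, Col27a1 a fibrillar gene with a lower level in the double knockout, Col4a1 a basement membrane chain and Col17a1 the most abundant transmembrane gene.
Col1a1: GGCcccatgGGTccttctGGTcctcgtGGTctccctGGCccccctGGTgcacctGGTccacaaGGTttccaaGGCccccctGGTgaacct
Col27a1: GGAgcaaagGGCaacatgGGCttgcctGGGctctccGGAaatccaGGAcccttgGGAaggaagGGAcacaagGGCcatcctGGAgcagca
Col4a1: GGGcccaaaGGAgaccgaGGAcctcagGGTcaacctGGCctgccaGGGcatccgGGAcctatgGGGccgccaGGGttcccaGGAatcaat
Col17a1: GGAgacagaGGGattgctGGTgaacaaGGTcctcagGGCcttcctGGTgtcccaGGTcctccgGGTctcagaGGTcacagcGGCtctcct
The Col1a1 stretch begins at codon 168 of the coding sequence, that of Col27a1 at codon 673, that of Col4a1 at codon 1233 and that of Col17a1 at codon 651. Within these 10 triplets the genes look alike. They differ in how far the repeat runs on. The longest unbroken run held 216 to 344 triplets in the 11 fibrillar genes, with a median of 338. It held 39 to 66 triplets in the 6 type IV genes, whose coding sequence was cut into 22 to 27 runs of at least 5 triplets. In the 4 transmembrane genes it held 40 to 55 triplets, in 5 to 14 runs. Col27a1, with 217 triplets, and Col24a1, with 216, had the shortest runs of the fibrillar genes. In both the repeat was split into 3 runs, which together held 329 triplets in Col27a1 and 327 in Col24a1.

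**Figure D1:**
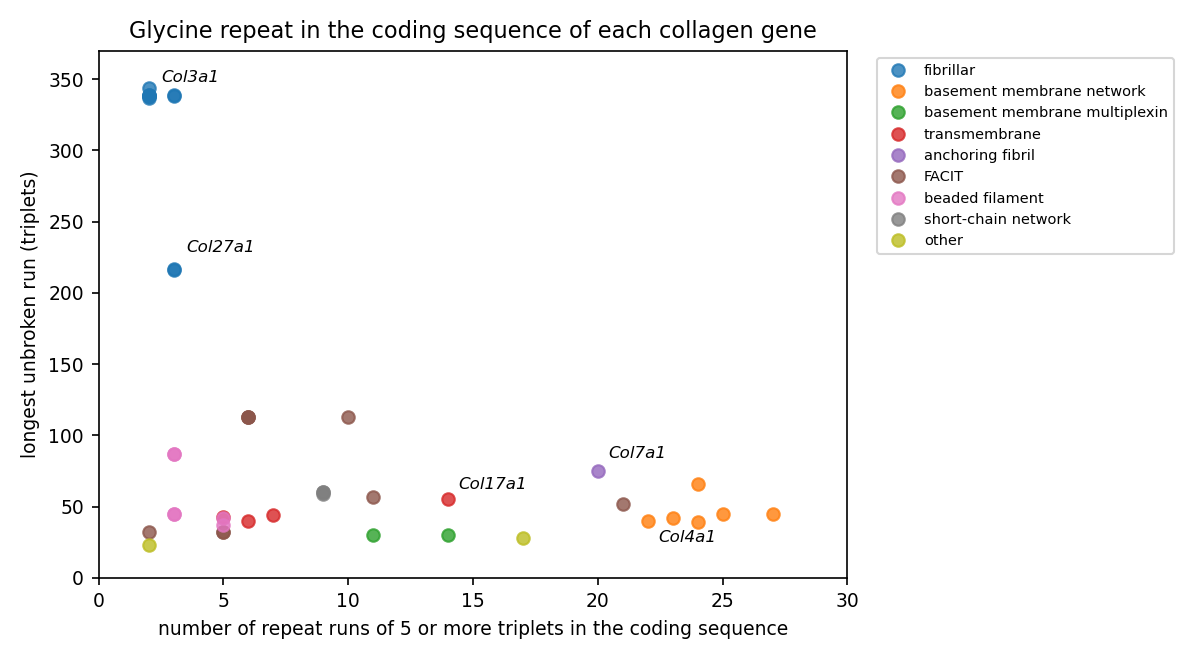
Longest unbroken glycine repeat (triplets, vertical axis) against the number of repeat runs of at least 5 triplets (horizontal axis) in the coding sequence of each of the 44 collagen genes, coloured by class. The 11 fibrillar genes sit at 216 triplets or more with 2 or 3 runs, while the type IV genes sit at 66 or fewer with 22 to 27 runs.

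Upstream sequence was available from RefSeq (GRCm38.p6) for 35 of the 44 genes, in 38 windows of 250 bases before the annotated start. The letters CTTTGA, the core of the element that LEF and TCF proteins are known to bind, were searched on both strands, so that TCAAAG also counts, and no other motif was searched. They occurred in 9 of the 38 collagen windows (23.7%) and in 4544 of 32851 windows of all genes (13.8%). Of the 27 collagen genes that passed the test between the double knockout and WT, 22 had a window and 5 of these held the letters. The 4 whose matching window overlapped no annotated exon are shown, 5′ to 3′ on the strand of the gene, with the match in capitals. They are Col5a3 at chr9:20815068-20815317, minus strand, Col13a1 at chr10:61979109-61979358, minus strand, Col15a1 at chr4:47207762-47208011, plus strand, and Col6a2 at chr10:76623631-76623880, minus strand.
Col5a3: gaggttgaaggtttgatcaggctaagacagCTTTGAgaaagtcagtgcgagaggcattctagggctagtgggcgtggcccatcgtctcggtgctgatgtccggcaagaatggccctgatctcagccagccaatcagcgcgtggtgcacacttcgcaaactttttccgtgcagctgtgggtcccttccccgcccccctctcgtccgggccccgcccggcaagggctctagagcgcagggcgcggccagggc
Col13a1: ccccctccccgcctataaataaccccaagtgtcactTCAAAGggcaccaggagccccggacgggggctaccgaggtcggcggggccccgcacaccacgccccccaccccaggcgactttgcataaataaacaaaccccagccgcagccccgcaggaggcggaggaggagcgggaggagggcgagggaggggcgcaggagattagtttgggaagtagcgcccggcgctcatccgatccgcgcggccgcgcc
Col15a1: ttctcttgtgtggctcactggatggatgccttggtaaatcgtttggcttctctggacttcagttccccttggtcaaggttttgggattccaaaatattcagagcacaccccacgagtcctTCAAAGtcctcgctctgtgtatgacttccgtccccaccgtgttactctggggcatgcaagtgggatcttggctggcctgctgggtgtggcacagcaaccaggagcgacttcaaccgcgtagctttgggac
Col6a2: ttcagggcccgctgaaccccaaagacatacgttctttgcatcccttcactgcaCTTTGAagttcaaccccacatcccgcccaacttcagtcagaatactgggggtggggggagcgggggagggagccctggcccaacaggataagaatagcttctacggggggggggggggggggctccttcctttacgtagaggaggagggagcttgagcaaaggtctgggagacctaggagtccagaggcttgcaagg
The first base of the match lay 220 bases upstream of the start in Col5a3, 214 in Col13a1, 130 in Col15a1 and 197 in Col6a2. The letters describe the window and do not show that a factor binds there.

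Total expected counts ran from 40480694 to 63220022 per library, and 19640 genes, 41 of the 44 collagens among them, had enough counts to be tested. Lef1 itself was at 9.22 and 9.42 TPM, a level scaled for transcript length and library, in the double knockout, 13.5 and 8.37 TPM in LEF1cKO and 21.4 and 20.4 TPM in WT. Its log2 fold change in LEF1cKO against WT was -0.92 ± 0.25 (SE), which missed the threshold (edgeR adjusted p = 0.282). Tcf7 was at 13.7 and 18 TPM in the double knockout, 29.3 and 27.8 TPM in LEF1cKO and 26.9 and 36.0 TPM in WT. Gene totals do not show which exons such reads came from. The epithelial keratins Krt5 and Krt14 were at 2757 TPM or more in every library. Markers of several other skin cell types moved with the groups, and so with many values below. The 10 fibroblast markers summed to 580 and 608 TPM in the double knockout, 290 and 422 TPM in LEF1cKO and 297 and 249 TPM in WT, and 8 of the 10 rose in the double knockout against WT. The 6 leukocyte markers summed to 764 and 721 TPM in the double knockout, 173 and 277 TPM in LEF1cKO and 99.2 and 34.9 TPM in WT. The 4 adipocyte markers reached 142 TPM in double knockout replicate 1 and at most 0.96 TPM in the other 5 libraries, so this library stood apart. The 6 mural cell markers summed to 253 and 152 TPM in the double knockout, 62.6 and 74.4 TPM in LEF1cKO and 69.7 and 55.5 TPM in WT, and 5 rose against WT. The 5 dermal papilla markers summed to 42.4 and 24.9 TPM in the double knockout and 17.7 and 24.55 TPM in LEF1cKO. In WT they summed to 10.35 and 10.27 TPM, and 2 rose and 1 fell in the double knockout against WT. The 4 melanocyte markers did not follow the groups, with sums of 213 and 380 TPM in the double knockout, 285 and 189 TPM in LEF1cKO and 439 and 301 TPM in WT, and none passed.

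The collagen genes together held 3135 and 2871 TPM in the double knockout, 1506 and 2070 TPM in LEF1cKO and 1301 and 1156 TPM in WT, with replicate 1 given before replicate 2 here and below. The mean was 3003 ± 186 TPM in the double knockout, 1788 ± 399 TPM in LEF1cKO and 1229 ± 103 TPM in WT (SD, n = 2 each), which put the double knockout 2.44-fold above WT. The classes did not share this change. Summed fibrillar collagen was 1611 and 1273 TPM in the double knockout, 375 and 775 TPM in LEF1cKO and 243 and 152 TPM in WT. The 6 type IV chains summed to 171 and 171 TPM in the double knockout, 336 and 301 TPM in LEF1cKO and 353 and 332 TPM in WT. Transmembrane collagen summed to 757 and 870 TPM in the double knockout, 288 and 446 TPM in LEF1cKO and 235 and 228 TPM in WT. So the double knockout libraries lay above all others for the fibrillar and transmembrane sums and below all others for the type IV sum. A few genes set each sum. In the double knockout Col1a1, Col1a2 and Col3a1 held a mean of 1356 of the 1442 fibrillar TPM. Col17a1 held 789 of the 813 transmembrane TPM there. In WT, Col4a1 and Col4a2 held 312 of the 342 type IV TPM. Other members of these classes were level or moved the other way, as given below. Sorted cells were measured in bulk, so that more cells of a type and more RNA per cell cannot be told apart in these sums or in any value below.

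**Figure D2:**
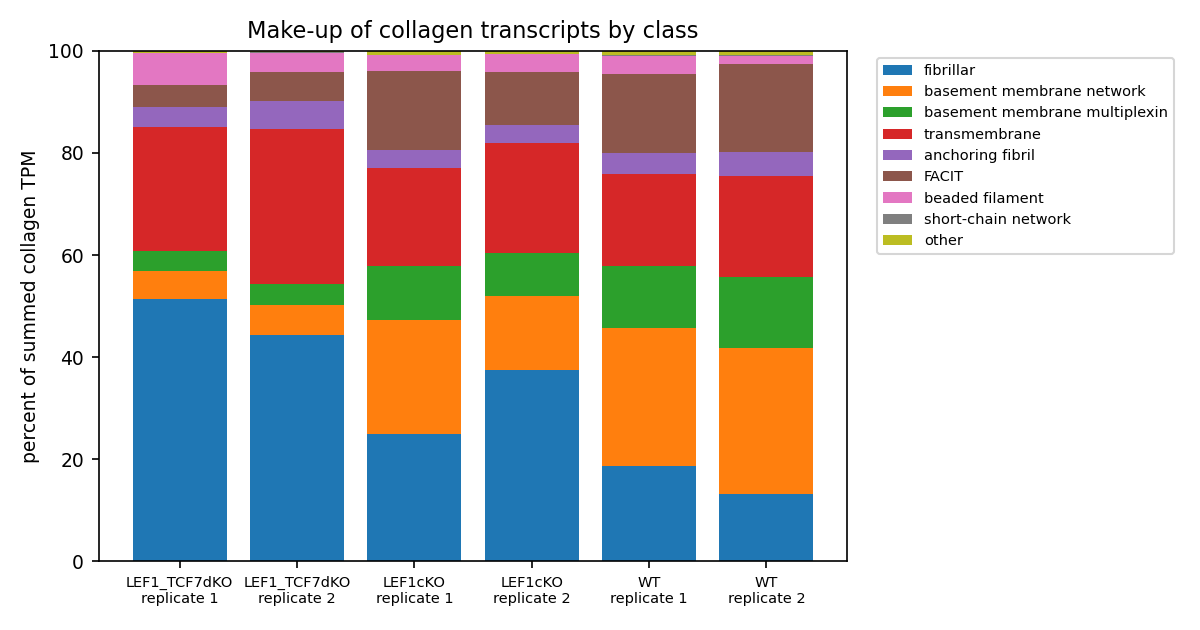
Share of summed collagen TPM (percent, vertical axis) held by each class in each of the 6 libraries, with the double knockout at the left, LEF1cKO in the middle and WT at the right. Fibrillar genes held 51.4% and 44.3% in the double knockout, 24.9% and 37.5% in LEF1cKO and 18.7% and 13.1% in WT, while type IV chains held 5.45% and 5.97% in the double knockout, 22.3% and 14.5% in LEF1cKO and 27.1% and 28.7% in WT.

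Between the double knockout and WT, 27 of the 41 collagen genes tested passed an adjusted p of 0.05, of which 19 rose and 8 fell. Over all 19640 genes 37.6% passed, 18% as rises and 19.6% as falls. The collagen genes thus held a larger share of rises than the background, and their falls, at 8 of 41, lay near it. The members were chosen with earlier results of these data known, so these shares were not tested as a set. The median log2 fold change of the tested members was 1.26, against 0.01 for all genes. By class it was 1.60 in the fibrillar genes, 0.21 in the type IV genes and 1.69 in the transmembrane genes, and these medians were not tested against each other. Of the 27 genes, 9 kept their call in each of 6 fits that left out 1 library and in each of the other 10 alternatives. These were Col1a1, Col1a2, Col16a1 and Col17a1, which rose, and Col4a1, Col4a2, Col14a1, Col25a1 and Col27a1, which fell. Without double knockout replicate 1, 12 collagen genes passed, and without WT replicate 2, 9 did.

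**Figure D3:**
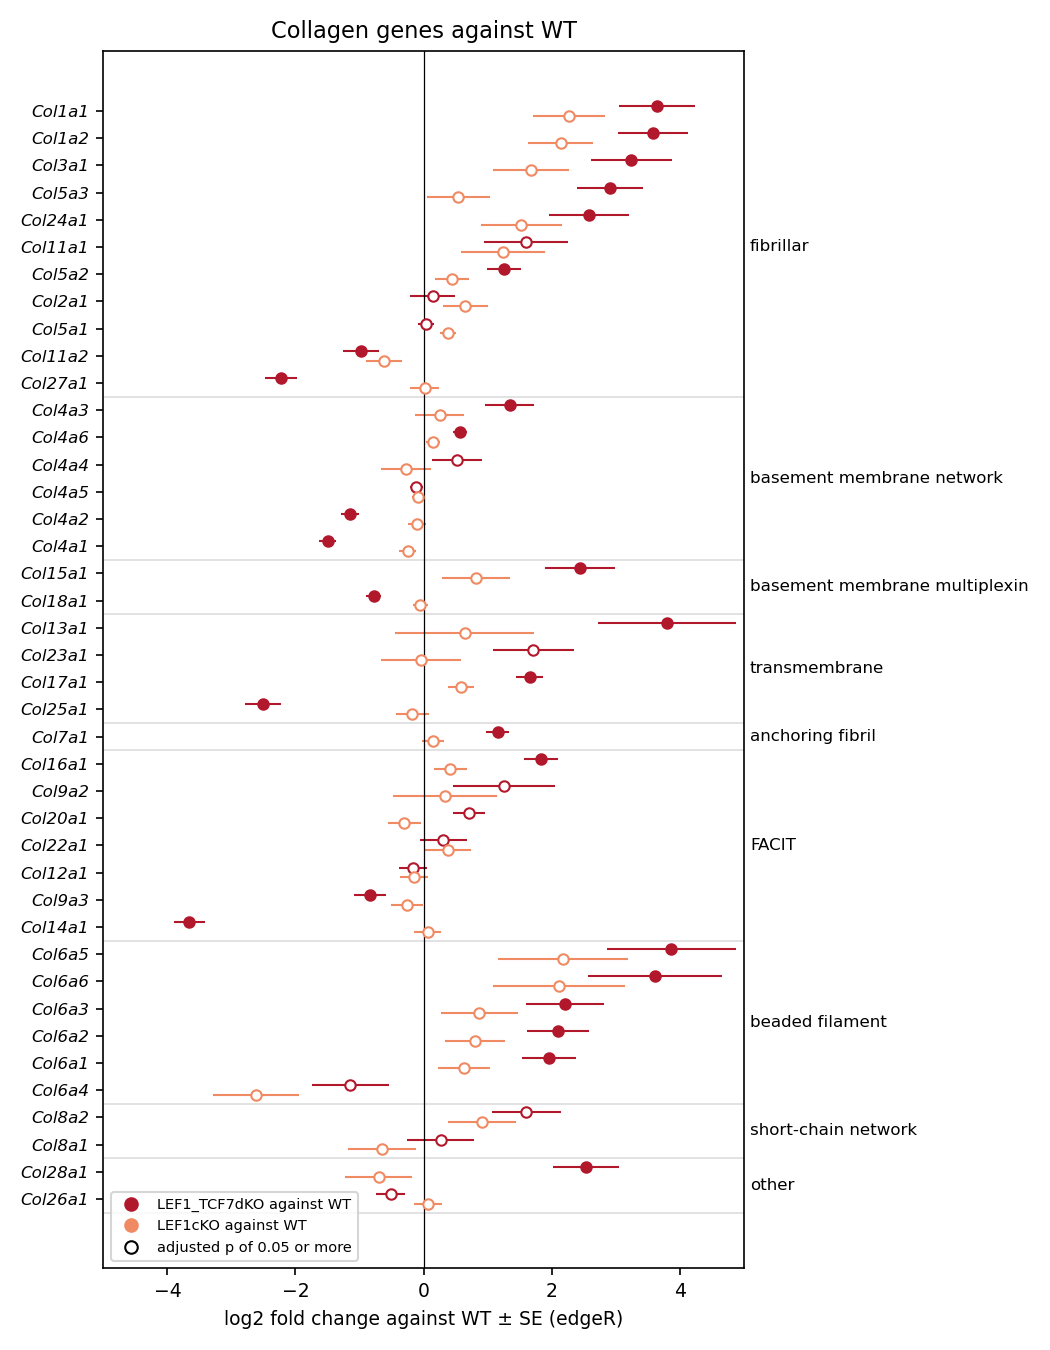
Log2 fold change against WT (horizontal axis, ± SE, edgeR) of the 41 tested collagen genes, sorted within class, for the double knockout (red) and LEF1cKO (orange); filled points had an adjusted p under 0.05. Filled red points stand on both sides of 0, with 19 to the right and 8 to the left, and no orange point is filled.

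The type I and III fibrillar chains showed the largest rises, in fold, of the collagen genes with a group mean of at least 5 TPM. Col1a1 (chr11:94936224-94953042 in GRCm38, plus strand), the main chain of type I collagen, had 430.3 and 361 TPM in the double knockout, 88.2 and 206 TPM in LEF1cKO and 43.0 and 15.2 TPM in WT. Its partner chain Col1a2 (chr6:4504814-4541544, plus strand) had 458 and 374 TPM in the double knockout, 93.0 and 203 TPM in LEF1cKO and 45.0 and 17.6 TPM in WT. Col3a1 (chr1:45311538-45349706, plus strand), the type III chain of soft connective tissue, had 626 and 463 TPM in the double knockout, 95.3 and 258 TPM in LEF1cKO and 75.8 and 28.1 TPM in WT. In these 3 genes no library of one group overlapped another group, and WT replicate 2 was the lowest library. Col1a1 rose 12.6-fold in the double knockout against WT (log2 3.65 ± 0.59, adjusted p = 0.00731). Col1a2 rose 12.0-fold (log2 3.59 ± 0.54, adjusted p = 0.00633). Col3a1 rose 9.49-fold (log2 3.25 ± 0.63, adjusted p = 0.0117), and this call was lost without WT replicate 2 and without double knockout replicate 1. Beside these rises, the log2 fold changes of the 10 fibroblast markers in the double knockout against WT ran from -0.31 for Fbln1 to 3.06 for Pdgfrb, with a median of 2.49. The part of fibroblast RNA in the collagen rises was not tested.

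The minor fibrillar chains, which regulate fibril width, were lower and moved less evenly. Col5a2 had 44.4 and 33.1 TPM in the double knockout, 15.4 and 26.9 TPM in LEF1cKO and 16.5 and 12.7 TPM in WT, and rose in the double knockout against WT (log2 1.26 ± 0.27, adjusted p = 0.0155). Its partner Col5a1 had 23.6 and 19.0 TPM in the double knockout, 26.1 and 28.2 TPM in LEF1cKO and 20.4 and 20.9 TPM in WT. The log2 fold change of Col5a1 against WT was 0.04 ± 0.12, and the 2 groups overlapped. Col5a3 (chr9:20770050-20815067, minus strand), the remaining type V chain, had 15.0 and 6.57 TPM in the double knockout, 1.36 and 2.64 TPM in LEF1cKO and 1.65 and 0.94 TPM in WT. It rose against WT (log2 2.92 ± 0.52, adjusted p = 0.00906) and against LEF1cKO (log2 2.37 ± 0.51, adjusted p = 0.0243), with replicate 1 the higher of the double knockout libraries. Col24a1 was called as a rise (log2 2.59 ± 0.63, adjusted p = 0.0224) at only 0.26 and 0.33 TPM in the double knockout, 0.12 and 0.20 TPM in LEF1cKO and 0.04 and 0.22 TPM in WT.

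A pair of fibrillar genes went the other way. Col27a1 (chr4:63214004-63334991, plus strand), a fibrillar collagen known from cartilage, with a shortened helix, had 9.27 and 11.1 TPM in the double knockout, 52.1 and 44.2 TPM in LEF1cKO and 37.6 and 52.0 TPM in WT. It fell by 2.23 ± 0.24 on the log2 scale against WT (adjusted p = 0.00359) and by 2.24 ± 0.24 against LEF1cKO (adjusted p = 0.0107). LEF1cKO and WT overlapped for this gene, and both double knockout libraries lay far below them. Col11a2, a minor fibrillar chain of cartilage, was called as a fall against WT (log2 -0.97 ± 0.28, adjusted p = 0.0398). Its TPM did not separate the groups, at 1.25 and 0.70 TPM in the double knockout, 0.72 and 0.94 TPM in LEF1cKO and 0.96 and 1.47 TPM in WT. The calls of Col11a2 and Col24a1 were lost with transcript length as an offset and in limma on TPM.

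**Figure D4:**
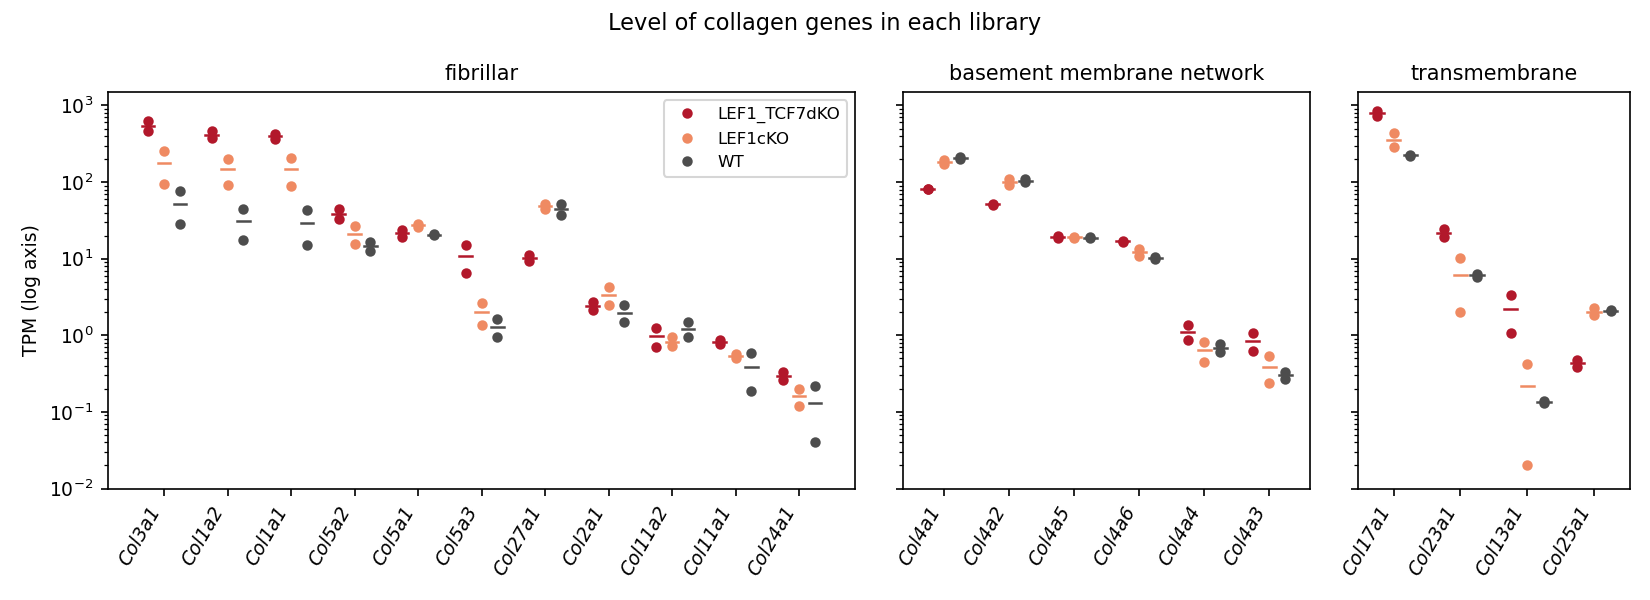
TPM (vertical axis, log scale) of the 11 fibrillar, 6 basement membrane network and 4 transmembrane collagen genes in each library; points are libraries, short bars are group means, and the double knockout stands left of LEF1cKO and WT. Col1a1, Col1a2, Col3a1 and Col17a1 were highest in the double knockout, and Col27a1, Col4a1, Col4a2 and Col25a1 were lowest there.

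In the basement membrane network, the common chains fell while rarer ones were level or higher. Col4a1 (chr8:11198423-11312826, minus strand), the main type IV chain, had 81.8 and 81.6 TPM in the double knockout, 195 and 174 TPM in LEF1cKO and 213 and 202 TPM in WT. Col4a2 (chr8:11312805-11449287, plus strand), with which it assembles, had 52.3 and 50.9 TPM in the double knockout, 111 and 92.5 TPM in LEF1cKO and 109 and 99.8 TPM in WT. The replicates of the double knockout lay close together, and below every library of the other groups. Against WT, Col4a1 fell by 1.5 ± 0.13 on the log2 scale (adjusted p = 0.00271) and Col4a2 by 1.15 ± 0.15 (adjusted p = 0.0045). Against LEF1cKO, Col4a1 fell by 1.25 ± 0.13 (adjusted p = 0.0107) and Col4a2 by 1.04 ± 0.14 (adjusted p = 0.0118). The endothelial markers, from cells whose vessels also carry this network, summed higher in the double knockout, at 75.1 and 17.4 TPM, than in LEF1cKO, at 7.97 and 9.32 TPM, or in WT, at 7.33 and 6.16 TPM, and their part was not tested.

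Col4a5 and Col4a6, the chains of the other epithelial type IV network, lie head to head on chromosome X. Col4a6 (chrX:141165403-141474076, minus strand) had 16.9 and 16.7 TPM in the double knockout, 10.9 and 13.4 TPM in LEF1cKO and 10.7 and 9.96 TPM in WT. It rose by a small step against WT (log2 0.57 ± 0.11, adjusted p = 0.0115) and against LEF1cKO (log2 0.41 ± 0.11, adjusted p = 0.0412). The Col4a6 call against WT was lost without either WT library and without double knockout replicate 1. That against LEF1cKO was lost in most alternatives, among them limma on TPM and the replicate number as a block. Col4a5 had 18.4 and 19.9 TPM in the double knockout, 18.5 and 19.4 TPM in LEF1cKO and 19.1 and 18.4 TPM in WT, so that the 3 groups overlapped (log2 -0.11 ± 0.10 in the double knockout against WT). Col4a3, a chain best known from the kidney, was called as a rise against WT (log2 1.35 ± 0.38, adjusted p = 0.0359). Its level was low, at 0.62 and 1.08 TPM in the double knockout, 0.24 and 0.53 TPM in LEF1cKO and 0.33 and 0.27 TPM in WT. Its call was lost with transcript length as an offset, in limma on TPM, and without any 1 of the double knockout or WT libraries. Col4a3 shares 563 exonic bases with an opposite-strand transcript, C430014B12Rik, and the sources used here do not say whether reads were counted by strand. All 3 type IV pairs are divergent: Col4a1 and Col4a2 share 22 bases at their starts, 71 bases separate Col4a4 from Col4a3, and 1308 bases separate Col4a6 from Col4a5.

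Because the chains of each pair below can assemble together, their ratio within a library was also read. Col1a1 to Col1a2 was 0.940 and 0.965 in the double knockout, 0.949 and 1.02 in LEF1cKO and 0.956 and 0.865 in WT, although both genes differed more than 10-fold in level between double knockout and WT. Col4a1 to Col4a2 was 1.56 and 1.60 in the double knockout, 1.76 and 1.88 in LEF1cKO and 1.96 and 2.03 in WT. Col4a5 to Col4a6 was 1.09 and 1.2 in the double knockout, 1.70 and 1.44 in LEF1cKO and 1.79 and 1.85 in WT. For both type IV pairs the groups did not overlap and LEF1cKO lay between the others. Col5a1 to Col5a2 was 0.532 and 0.576 in the double knockout, 1.69 and 1.05 in LEF1cKO and 1.24 and 1.65 in WT. Col6a1 to Col6a2 was 1.02 and 1.10 in the double knockout, 0.966 and 1.07 in LEF1cKO and 1.09 and 1.32 in WT. The ratios carry no test.

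**Figure D5:**
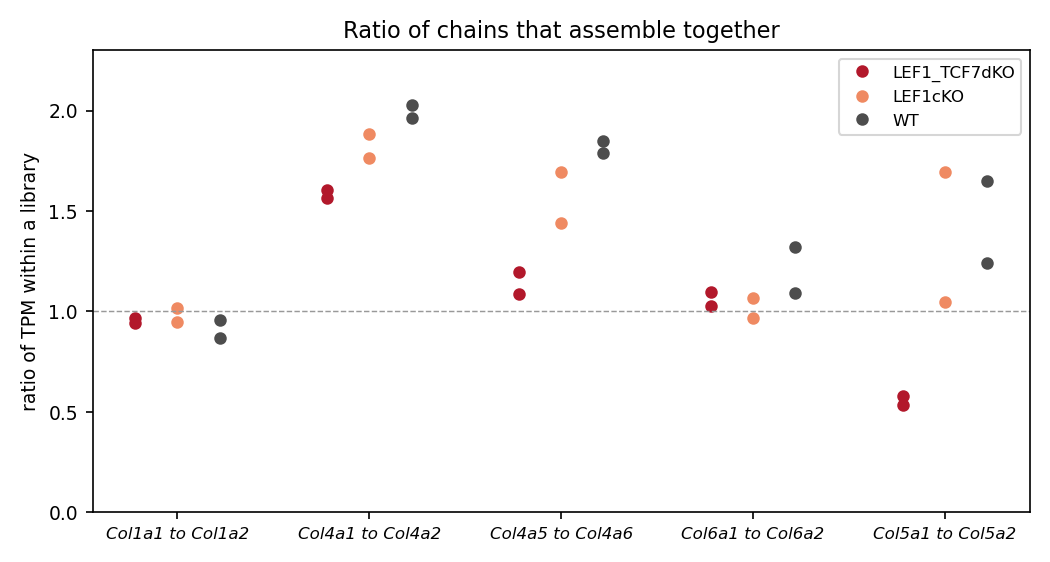
Ratio of TPM of 2 partner chains within a library (vertical axis) for 5 pairs; each point is a library, with the double knockout left of LEF1cKO and WT, and the dashed line marks equal levels. The type I ratios lie between 0.865 and 1.02 in every library, while the double knockout is lowest for both type IV pairs and for Col5a1 to Col5a2.

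The basement membrane zone also holds 2 multiplexins, collagens with a cleavable C-terminal domain. Col18a1 (chr10:77052178-77166548, minus strand), the source of endostatin, had 96.9 and 105 TPM in the double knockout, 155 and 163 TPM in LEF1cKO and 151 and 158 TPM in WT. It fell by 0.78 ± 0.11 on the log2 scale against WT (adjusted p = 0.0058) and by 0.73 ± 0.11 against LEF1cKO (adjusted p = 0.013). Col15a1 had 28.5 and 13.0 TPM in the double knockout, 5.81 and 9.34 TPM in LEF1cKO and 5.75 and 2.79 TPM in WT, and rose against WT (log2 2.45 ± 0.54, adjusted p = 0.0175). The 2 genes of this class thus moved in opposite directions. The mean transcript length that RSEM assigned to Col15a1 was 20.3% longer in the double knockout than in WT, with no overlap, while that of Col18a1 was 1.89% shorter. Such a length difference was not particular to Col15a1. The length of Col26a1 differed by -16.7% in the double knockout against WT, and that of Col9a3 by 21.9% in LEF1cKO against WT, both with no overlap. The Col9a3 difference rested on WT replicate 2, at 1455 bases. WT replicate 1, at 2093 bases, lay near the 2171 and 2156 bases of LEF1cKO. Col7a1 (chr9:108953586-108984875, plus strand), which makes the anchoring fibrils that tie the basement membrane to the dermis, had 123 and 158 TPM in the double knockout, 55.7 and 75.4 TPM in LEF1cKO and 53.9 and 55.0 TPM in WT. It rose against WT (log2 1.16 ± 0.18, adjusted p = 0.00643) and against LEF1cKO (log2 1.01 ± 0.18, adjusted p = 0.0161). The calls of Col18a1 and Col7a1 against WT were lost without WT replicate 2, and that of Col15a1 also without double knockout replicate 1.

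Among the transmembrane collagens, Col17a1 (chr19:47646344-47692094, minus strand) was the most abundant collagen gene in all 6 libraries. It had 734 and 844 TPM in the double knockout, 284 and 433 TPM in LEF1cKO and 227 and 219 TPM in WT. It rose 3.16-fold against WT (log2 1.66 ± 0.21, adjusted p = 0.00455) and 2.11-fold against LEF1cKO (log2 1.08 ± 0.21, adjusted p = 0.0198). Of the 10 markers of hair germ and follicle epithelium, 4 rose and 4 fell between the double knockout and WT. Their median log2 fold change was 0.0013, but moves in both directions offset each other, so the markers were not level. The rises were Cd34, which encodes the sort marker CD34 (log2 1.54 ± 0.28), Itga6, Krt14 (log2 1.02 ± 0.25) and Krt15. The falls were Cdh3, which encodes the sort marker P-cadherin (log2 -0.93 ± 0.18), Lgr5, Lhx2 (log2 -1.38 ± 0.27) and Sox9. The part of these markers in the Col17a1 value was not tested. Col25a1 (chr3:130131501-130599877, plus strand), known from nerve and muscle, had 0.39 and 0.47 TPM in the double knockout, 2.25 and 1.82 TPM in LEF1cKO and 2.05 and 2.12 TPM in WT. It fell by 2.51 ± 0.28 against WT (adjusted p = 0.00366) and by 2.34 ± 0.28 against LEF1cKO (adjusted p = 0.0108), on the log2 scale. Both double knockout libraries lay under every other library for Col25a1, the reverse of Col17a1.

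The other transmembrane genes varied more between replicates. Col13a1, found at cell-matrix and neuromuscular junctions, had 3.38 and 1.06 TPM in the double knockout, 0.02 and 0.42 TPM in LEF1cKO and 0.14 and 0.13 TPM in WT. It rose against WT (log2 3.80 ± 1.08, adjusted p = 0.0366), and the call was lost without any 1 of the double knockout or WT libraries. Col23a1 had 19.4 and 24.1 TPM in the double knockout, 2.03 and 10.3 TPM in LEF1cKO and 5.84 and 6.29 TPM in WT. Its log2 fold change against WT was 1.72 ± 0.64, which missed the threshold (adjusted p = 0.0788), although the groups did not overlap and the LEF1cKO libraries lay on both sides of WT.

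Of the 9 fibril-associated collagens, which sit on the surface of fibrils, 7 were tested. In the double knockout against WT, 1 rose and 2 fell, beside 18% rises and 19.6% falls over all genes. Col14a1 (chr15:55307750-55520803, plus strand) showed the largest fall of any collagen gene tested, with 10.5 and 14.4 TPM in the double knockout, 179 and 138 TPM in LEF1cKO and 137 and 156 TPM in WT. It fell by 3.66 ± 0.24 on the log2 scale against WT (adjusted p = 0.00153) and by 3.73 ± 0.24 against LEF1cKO (adjusted p = 0.0107). LEF1cKO and WT overlapped, and Col14a1 held most of the transcripts of its class in both. Col16a1 (chr4:130047840-130099283, plus strand), found in skin near the basement membrane, had 105 and 120.3 TPM in the double knockout, 29.8 and 53.7 TPM in LEF1cKO and 33.7 and 24.8 TPM in WT. It rose against WT (log2 1.84 ± 0.26, adjusted p = 0.00572) and against LEF1cKO (log2 1.42 ± 0.26, adjusted p = 0.0178). Col12a1 had 17.2 and 22.7 TPM in the double knockout, 18.4 and 18.5 TPM in LEF1cKO and 24.7 and 14.6 TPM in WT, with overlapping groups. Col9a3 was called as a fall against WT (log2 -0.84 ± 0.25, adjusted p = 0.0432) at 1.34 and 1.41 TPM in the double knockout, 1.57 and 1.85 TPM in LEF1cKO and 2.08 and 2.77 TPM in WT. This gene shares 234 exonic bases with Tcfl5 on the opposite strand, and its call was lost in most alternatives. Col20a1 had 2.28 and 2.75 TPM in the double knockout, 1.05 and 0.90 TPM in LEF1cKO and 1.07 and 1.07 TPM in WT, and rose against LEF1cKO (log2 1.01 ± 0.26, adjusted p = 0.0367). Against WT it missed the threshold (adjusted p = 0.0716). The Col20a1 call against LEF1cKO was lost in every fit that left out 1 library, and with the replicate number as a block.

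Type VI collagen forms beaded filaments around cells. In the double knockout against WT, 5 of its 6 genes rose, beside 18% of all genes. Col6a1 had 68.3 and 41.5 TPM in the double knockout, 16.3 and 25.9 TPM in LEF1cKO and 17.5 and 8.11 TPM in WT (log2 1.96 ± 0.42, adjusted p = 0.0159). Col6a2 had 66.6 and 37.9 TPM in the double knockout, 16.8 and 24.2 TPM in LEF1cKO and 16 and 6.14 TPM in WT (log2 2.10 ± 0.49, adjusted p = 0.0197). Col6a3 had 58.3 and 25.7 TPM in the double knockout, 14.2 and 20.7 TPM in LEF1cKO and 13.6 and 4.26 TPM in WT (log2 2.21 ± 0.62, adjusted p = 0.0345). In all 3 genes replicate 1 was the higher library in both the double knockout and WT, and the calls were lost without double knockout replicate 1 or WT replicate 2. The minor chain Col6a5 was at 0.51 and 0.37 TPM in the double knockout, 0.02 and 0.30 TPM in LEF1cKO and 0.02 and 0.11 TPM in WT (adjusted p = 0.0284). Col6a6, another minor chain, was at 0.60 and 0.42 TPM in the double knockout, 0.03 and 0.32 TPM in LEF1cKO and 0.05 and 0.02 TPM in WT (adjusted p = 0.0388). These low levels make the fold changes of the minor chains uncertain. No type VI gene passed between the double knockout and LEF1cKO.

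Col28a1, a collagen known from Schwann cells of peripheral nerve, had 2.78 and 1.24 TPM in the double knockout, 0.18 and 0.22 TPM in LEF1cKO and 0.42 and 0.21 TPM in WT. It rose against WT (log2 2.54 ± 0.52, adjusted p = 0.0135) and against LEF1cKO (log2 3.24 ± 0.54, adjusted p = 0.0148). The 4 Schwann cell markers all rose in the double knockout against WT, and summed to 131 and 78.4 TPM there, 18.8 and 23.8 TPM in LEF1cKO and 22.3 and 17.5 TPM in WT. Their part in the Col28a1 value was not tested. Col26a1 had 10.6 and 7.94 TPM in the double knockout, 11.8 and 11.1 TPM in LEF1cKO and 10.4 and 9.32 TPM in WT, and passed no test. The remaining 11 collagen genes, 8 of which were tested, stayed at or below 4.25 TPM in every library. Among them Col19a1, Col9a1 and Col10a1 had too few counts to be tested, with at most 13 counts in a library.

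Between LEF1cKO and WT, 0 of the 41 collagen genes passed the edgeR test, beside 0.601% of all genes. At an unadjusted p under 0.05 there were 6 (1882 of all 19640 genes), namely Col1a1, Col1a2, Col3a1, Col5a1, Col6a4 and Col17a1. DESeq2, fitted to all 44, called 2 as rises, beside 613 calls over all genes. They were Col1a1 (DESeq2 adjusted p = 0.0430) and Col1a2 (DESeq2 adjusted p = 0.0348). The same 2 passed in edgeR with no filter on low counts, beside 422 calls over all genes. Of the genes with a group mean of at least 5 TPM, Col1a1 differed most, with a log2 fold change of 2.27 ± 0.56 (adjusted p = 0.242, and 0.0149 to 0.587 over the alternatives). Col1a2 followed at 2.15 ± 0.51 (adjusted p = 0.221). LEF1cKO replicate 2 held more than 2-fold the Col1a1 level of replicate 1, as given above, and leaving it out gave a log2 fold change of 1.60. By class the median was 0.65 in the fibrillar genes, -0.09 in the type IV genes and 0.27 in the transmembrane genes, against 0.01 for all genes. Col4a1, at -0.25 ± 0.13, and Col14a1, at 0.06 ± 0.22, which both fell in the double knockout, did not pass here.

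Between the double knockout and LEF1cKO, 13 of the 41 collagen genes passed, 7 as rises and 6 as falls, beside 25.2% of all genes (11.2% rises and 14.1% falls). These shares lay close to those of the members, at 31.7% in all. The rises were Col4a6, Col5a3, Col7a1, Col16a1, Col17a1, Col20a1 and Col28a1, and the falls Col4a1, Col4a2, Col14a1, Col18a1, Col25a1 and Col27a1. Of the fibrillar genes that rose against WT, Col5a3 alone passed here. Col1a1 differed from LEF1cKO by a log2 fold change of 1.38 ± 0.54 (adjusted p = 0.109). Without double knockout replicate 1, 0 collagen genes and 1 gene of all passed in this comparison, although each of the 13 kept its direction. The comparisons with WT and with LEF1cKO share the double knockout libraries, so they are not independent.

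Genes that make, process and bind collagen were read from a list of 59 tested genes in 6 roles, of which 31 rose and 9 fell in the double knockout against WT, beside 18% rises and 19.6% falls over all genes. This list was also chosen with earlier results known, so its shares were not tested as a set. In LEF1cKO against WT, 1 rose (0.224% of all genes rose), and in the double knockout against LEF1cKO, 16 rose and 6 fell, beside 11.2% and 14.1% of all genes. Of the 40 calls against WT, 9 were kept with each of the 6 libraries left out, namely Adamts2, Adamts14, Creb3l1, Ddr2, Fkbp10, Loxl1, Loxl4, P3h2 and P3h4. Of 8 genes for propeptide removal, Adamts14, a procollagen N-proteinase, had 14.3 and 11.6 TPM in the double knockout, 4.34 and 4.92 TPM in LEF1cKO and 1.07 and 1.24 TPM in WT. Its groups did not overlap, and it rose in LEF1cKO against WT (log2 1.93 ± 0.16, adjusted p = 0.00702) as well as in the double knockout against WT (log2 3.35 ± 0.17, adjusted p = 0.000874). The LEF1cKO call was lost without WT replicate 1 and in limma on log2(TPM + 1), with an adjusted p of at most 0.0556 over the alternatives. The related Adamts2 rose in the double knockout against WT (log2 3.27 ± 0.46, adjusted p = 0.00553), and Adamts3 fell (log2 -1.77 ± 0.30, adjusted p = 0.00814). Of 7 crosslinking genes, 5 rose, among them the lysyl oxidases Loxl1 (log2 2.95 ± 0.40, adjusted p = 0.00501) and Loxl4 (log2 2.99 ± 0.43, adjusted p = 0.0057). The 1 that fell was Pxdn, the peroxidase that crosslinks type IV collagen (log2 -0.76 ± 0.13, adjusted p = 0.00828), in the direction of Col4a1 and Col4a2. The Pxdn call was lost without WT replicate 2 and without double knockout replicate 1.

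Of 15 chain-modifying enzymes, 6 rose and 4 fell against WT, so the share of falls, 4 of 15, lay near the 19.6% of all genes, and that of rises above their 18%. The rises included P3h4, a partner of lysyl hydroxylation (log2 2.04 ± 0.23, adjusted p = 0.00367), the prolyl 3-hydroxylase P3h2 (log2 1.84 ± 0.23, adjusted p = 0.0044) and the lysyl hydroxylase Plod1 (log2 0.83 ± 0.12, adjusted p = 0.00573). Among 9 genes of folding and export, 5 rose, among them the transcription factor Creb3l1 (log2 2.01 ± 0.29, adjusted p = 0.00576), the chaperone Fkbp10 (log2 1.97 ± 0.29, adjusted p = 0.00589) and the collagen-binding protein gene Sparc (log2 1.92 ± 0.35, adjusted p = 0.00974). Serpinh1, the collagen chaperone HSP47, fell instead, with 101 and 142 TPM in the double knockout, 188 and 238 TPM in LEF1cKO and 214 and 226 TPM in WT (log2 -0.99 ± 0.19 against WT, adjusted p = 0.0117).

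Of 9 collagen receptors tested, 5 rose and none fell in the double knockout against WT, beside 18% rises and 19.6% falls over all genes. The rises included the receptor kinase Ddr2 (log2 2.61 ± 0.32, adjusted p = 0.00416), the endocytic receptor Mrc2 (log2 1.07 ± 0.17, adjusted p = 0.00677) and Lair1, a receptor of leukocytes (log2 2.64 ± 0.50, adjusted p = 0.0107). Lair1 was low, at 0.56 and 0.78 TPM in the double knockout, 0.18 and 0.21 TPM in LEF1cKO and 0.10 and 0.08 TPM in WT. Of 11 partners of the basement membrane and hemidesmosome, 6 rose and 2 fell, beside the same 18% rises and 19.6% falls over all genes. Itgb4, the integrin chain that binds collagen XVII in hemidesmosomes, had 154 and 158 TPM in the double knockout, 100.5 and 113 TPM in LEF1cKO and 80.8 and 86.2 TPM in WT, and rose against WT (log2 0.76 ± 0.11, adjusted p = 0.0056). Plec, which links hemidesmosomes to keratin, rose as well (log2 1.11 ± 0.20, adjusted p = 0.00946), as did Nid2, a nidogen of the basement membrane (log2 3.58 ± 0.63, adjusted p = 0.00885). The call of Itgb4 was lost without WT replicate 1, that of Nid2 without WT replicate 2, and those of Plec and Lair1 without either WT library or without double knockout replicate 1. Hspg2, the basement membrane proteoglycan perlecan, had 86.6 and 91.5 TPM in the double knockout, 170.3 and 167 TPM in LEF1cKO and 103 and 119 TPM in WT. It fell against LEF1cKO (log2 -1.08 ± 0.14, adjusted p = 0.0111) and against WT (log2 -0.57 ± 0.14, adjusted p = 0.0208).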

How the data were processed

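RNA of 6 libraries was compared. The submitters' processing notes name RSEM 1.2.30, Bowtie2 2.2.9 and, as genome build, mm10. The gene annotation behind the counts was not given in the sources used here. Expected counts are RSEM estimates that the authors deposited per gene, with no normalization. The TPM values were scaled by the authors for effective length and library, per the file headers. Effective length was 50 bases under transcript length throughout. Another 92 identifiers with a total of 0 counts were dropped.

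The test was run on rounded expected counts with edgeR 4.0.16 (R 4.3.3), using TMM factors, filterByExpr by group, the quasi-likelihood F test on all 6 libraries with 3 residual degrees of freedom, and Benjamini-Hochberg adjustment over all genes per comparison at 0.05. A gene is said to have risen or fallen where it passed. Alternatives included DESeq2 1.42.0 and limma 3.58.1 on log2(TPM + 1) and log2(TPM + 0.1). A count of 0 allows up to 3 counts, or 0.0475 to 0.0741 CPM, by counting error only. Replicates differed by more than sampling noise, with a chi-square per degree of freedom of 24.9 to 92.9. Positions are from GENCODE M21 (GRCm38, the same build as mm10), and repeats from its coding sequences, with the transcript of longest coding sequence per gene.

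The members and lists were chosen with earlier results of these data known. Members were named where they passed any comparison or reached a group mean of 5 TPM. Of each role and comparison, up to 3 genes with the smallest p were eligible to be named, and not all are printed.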

Additional observations from a re-analysis of the deposited data

How the results depend on the processing

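No collagen value turned direction past the threshold in any alternative. In LEF1cKO against WT, the count of collagen genes past the threshold was 0, against 2 with no filter on low counts, 2 with DESeq2 and 0 to 1 with 1 library left out. In the double knockout against WT it was 27, and 9 to 29 with 1 library left out. Between the double knockout and LEF1cKO it was 13, against 21 with no filter and 0 to 20 with 1 library left out. Over all genes, LEF1cKO against WT gave 118 calls, with 422 under no filter and 613 under DESeq2. The double knockout against WT gave 7389 over all genes, and 1968 without WT replicate 2, 2671 without WT replicate 1 and 2994 without double knockout replicate 1. The double knockout against LEF1cKO gave 4952, and 2585 with only the groups compared, 1652 without LEF1cKO replicate 1 and 1 without double knockout replicate 1. A fit with fewer libraries also had fewer degrees of freedom.

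The fibrillar median of the double knockout against WT, 1.60 on the log2 scale, ranged from 1.08 to 2.80 with 1 library left out, and that of the type IV genes, 0.21, from -0.027 to 0.30. The transmembrane median of LEF1cKO against WT, 0.27, ranged from -0.77 to 0.76, and that of the double knockout against LEF1cKO, 1.42, from 0.93 to 2.33. The cause was not tested. With limma on log2(TPM + 0.1) the median of all genes in the double knockout against WT was 0.13, and rises made up 3797 of 6637 calls, against 3540 of 7389 in edgeR.

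Equal replicate numbers did not mark pairs in the labels, and deviations of same-numbered libraries correlated at -0.042 to 0.056. With the replicate number as a block, 23 collagen genes passed in the double knockout against WT, 11 against LEF1cKO and 0 in LEF1cKO against WT. With 2 libraries a group, depth was not the main limit for abundant members, while genes below 1 TPM rested on few counts.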
